A study of Mus musculus with 12 samples.

Results

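Chromosome 11 was followed outward from the mouse alpha-globin locus to both ends of the chromosome, beyond the stretch in which the locus makes its dense local contacts. The fragments described were the DpnII restriction fragments on chromosome 11 whose midpoint lay below 31100000 or above 33200000 in the mm9 build, just over 1 Mb on either side of a centre placed at 32.15 Mb, close to the viewpoints. Of 508938 fragments listed anywhere in the genome in the 12 libraries, 115329 met this rule, 38731 on the centromeric side and 76598 on the telomeric side. They were 96.1% of the chromosome 11 fragments listed, and the other 4682 lay inside the limits. All 115329 are accounted for in the sums below, with single fragments of many counts treated apart.

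The cells were CD71+ erythroid cells isolated on magnetic columns from embryoid bodies on day 7 of differentiation of mouse embryonic stem cells. CD71 is the transferrin receptor, which red cell precursors carry in large amounts. WT cells were compared with D3839 cells, also named CTCFDKO, which are homozygous for loss of the CTCF boundary sites HS-38 and HS-39.5 upstream of the alpha-globin genes. There were 3 WT and 3 D3839 samples, each captured once with the R1 and R2 enhancers as viewpoints and once with the 5 promoters of Il9r, Snrnp25, Rhbdf1, Mpg and Nprl3, which gave 12 libraries and 7 viewpoints. The study's methods speak of separate differentiations, and the legend to its capture data of fewer independently generated clones than there were D3839 libraries, without a map of libraries to clones. The labels do not say which library came from which clone, and the sample names of D3839 replicates 2 and 3 resemble each other.

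NG Capture-C cross-links chromatin, cuts it with DpnII and ligates fragments that lay close together, after which oligonucleotides pull down the ligation products of chosen viewpoint fragments. The number of products that join a viewpoint to another fragment is the interaction count. Contact frequency generally falls with distance along the chromosome as a power law, and departures from that decay reflect the folding of chromosomes into domains and into active and inactive compartments. CTCF stops loop extrusion by cohesin, and the sites studied here bound the alpha-globin domain on the side of Rhbdf1 and Mpg. R1 and R2 are erythroid enhancers of alpha-globin that lie in introns of Nprl3. Nprl3 encodes a subunit of the GATOR1 complex, Mpg a DNA glycosylase of base excision repair, Rhbdf1 an inactive rhomboid protein, Snrnp25 a protein of the minor spliceosome and Il9r the receptor of interleukin 9.

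The genomic change that separates the groups is small beside the distances described, and its sequences are shown for that reason. The study's methods give a core of 14 bases for each CTCF site and a ScaI recognition site of 6 bases as the replacement. Capitals mark the letters TNNCCNCTGGNGG, the stretch over which both cores share most letters when aligned without gaps, N standing for any base. The pattern was thus derived from these sequences themselves and was searched on both strands.
HS-38: TACCCTCTGGTGGc
HS-39.5: cTGGCCACTGGGGG
ScaI site: agtact
The pattern lies on the strand as given in both, and the replacement does not hold it. On either strand it occurs in 0.521% of the 32851 mouse promoters of 300 bases in the RefSeq table used here, so that a match describes the letters and not a bound site.

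Each count below belongs to a fragment between DpnII cuts, whose recognition letters are GATC on both strands. The Il9r promoter is shown as an example of how sparse these cuts are at the viewpoint with the largest far share in WT. It spans 250 bases before to 50 bases after the start of the gene, on the minus strand at chr11:32200230-32200529 of GRCm38.p6, a newer build than the files use, and capitals mark its single DpnII site.
Il9r promoter: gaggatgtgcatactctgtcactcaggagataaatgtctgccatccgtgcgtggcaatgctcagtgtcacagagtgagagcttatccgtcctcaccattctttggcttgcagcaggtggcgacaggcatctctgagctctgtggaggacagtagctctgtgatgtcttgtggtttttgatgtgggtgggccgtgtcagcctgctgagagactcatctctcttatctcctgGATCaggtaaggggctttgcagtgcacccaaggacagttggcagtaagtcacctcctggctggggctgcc
Of all RefSeq promoters of this length, 48.0% hold at least 1 such site. The Mpg promoter also holds 1, the Snrnp25 and Nprl3 promoters hold none in this window.

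The far fragments were sampled thinly. Their median length was 355 bp, with the middle 50% between 171 and 653 bp. Of the 115329 fragments, 53.2% were listed in only 1 of the 42 combinations of library and viewpoint, 1933 were listed in 10 or more, and 85.9% of the 252987 listings were a count of 1. Far counts per library and viewpoint ran from 1750 for Snrnp25 in WT to 16787 for Il9r in D3839. Comparisons between genotypes were therefore made on sums over bins of 500 kb, over wider classes of distance or over all far fragments, and single fragments are given by their counts only. Within 25 kb of the centromeric limit the 68 fragments outside held 479 counts over the 12 libraries and the 64 inside held 551, and at the telomeric limit the 46 outside held 277 and the 52 inside 315, so that counts differed little between the sides of each limit.

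Some libraries stood apart from the others. The WT enhancer libraries listed far fragments with 1.96 to 2.60 counts per fragment, against 1.07 to 1.16 in all other combinations of library and viewpoint. Whether they were amplified or freed of duplicates differently is not given in the sources used here and was not tested, which bears on every enhancer comparison between genotypes below. In addition, D3839 replicate 1 differed from D3839 replicates 2 and 3 in how its far counts were spread over bins, by a chi-square per degree of freedom of 6.19 and 6.82 in the enhancer capture and 15.7 and 16.04 in the promoter capture. D3839 replicates 2 and 3 differed from each other by 1.07 in the enhancer capture, which is within sampling noise over 234 bins, and by 1.38 in the promoter capture, which is beyond it. WT pairs differed by 1.27 to 2.47. Repeat counts of a fragment also raise this value, so that it does not show whether replicates 2 and 3 were separate cultures. They were kept as 2 libraries because the labels list them as separate samples, and the far shares are also given with both counted as 1.

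The set-apart fragments were those with 5 or more counts in at least 1 library of a viewpoint that were listed in at most 3 of its 6 libraries. R1 had 844 of them and R2 had 1393, against 17 for Il9r, 15 for Rhbdf1, 11 each for Mpg and Nprl3 and 2 for Snrnp25. At R1, 618 were listed in WT libraries alone and 14 in D3839 libraries alone, and at R2 the numbers were 994 and 19. They held 26.1% to 35.0% of the far counts of R1 and 29.2% to 38.3% of those of R2 in WT, but 1.06% to 1.73% in D3839. At the promoter viewpoints they never held more than 0.716%.

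Single fragments show how uneven these counts were. At R2 the fragment chr11:33882915-33883445, 1.73 Mb from the centre, had 58, 4 and 6 counts in WT replicates 1, 2 and 3 and none in D3839. The fragment chr11:39644708-39644905 had 50, 6 and 10 counts in WT and none in D3839. The R2 fragments chr11:87938161-87938614 and chr11:55299573-55300272 had 46 and 45 counts in WT replicate 1 and none in the other 5 libraries. At R1 the fragments chr11:20653166-20653369 and chr11:25178196-25178347 each had 43 counts in WT replicate 1, with 8 and 8, and 2 and 1, in WT replicates 2 and 3, and none in D3839. Since a set-apart fragment may be listed in 3 libraries at most, those listed in all 3 WT libraries could have no count in D3839, and their absence there is no result. All 6 had the highest counts of the set-apart class and all 6 came from WT replicate 1. The other 6 viewpoints together gave each of them only 1 to 4 counts.

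The WT enhancer libraries also shared far fragments with each other more often than with D3839 libraries. Relative to the number of possible pairs of listings, WT libraries shared 7.95 times as many R1 fragments with each other as with D3839 libraries, and 6.35 times as many R2 fragments. At the promoter viewpoints the same ratio was 1.52 to 2.35, and among D3839 libraries it was 0.920 to 1.12 at all 7 viewpoints. The set-apart fragments were not a particular class of position or size, with a median distance of 20.0 Mb from the centre and a median length of 386 bp, against 19.4 Mb and 390 bp for other listed pairs of far fragment and viewpoint. They were left out of the values that follow unless stated, and enhancer differences between genotypes in shares, classes of distance, slopes and sides are also given with them kept.

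Far fragments took 14.8% to 37.9% of the chromosome 11 counts on average, depending on the viewpoint and genotype. In WT, R1 had a far share of 15.0%, 15.5% and 16.6% in the 3 libraries, and in D3839 17.4%, 24.8% and 25.5%. The R2 shares were 13.98%, 15.3% and 15.1% in WT and 16.8%, 23.8% and 24.9% in D3839. With set-apart fragments left out, each D3839 value was thus above the WT values at both enhancers, with D3839 replicate 1 closest to WT. The rule had removed 26.1% to 38.3% of the WT far counts and at most 1.73% of those of D3839, which lowers the WT shares by construction.

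The promoter viewpoints were placed the other way round. Il9r had 39.3%, 36.4% and 38.0% in WT and 26.7%, 30.9% and 31.1% in D3839. Snrnp25 had 35.1%, 35.3% and 33.8% in WT and 26.7%, 32.0% and 32.0% in D3839. Rhbdf1 had 35.0%, 34.3% and 33.7% in WT and 21.2%, 28.03% and 29.3% in D3839. Every D3839 library of these viewpoints lay below every WT library. Mpg had 34.5%, 34.0% and 33.8% in WT and 22.5%, 29.99% and 30.3% in D3839. Nprl3 had 35.8%, 34.7% and 31.5% in WT and 19.9%, 27.0% and 28.5% in D3839. The groups did not overlap at Mpg and Nprl3 either, and D3839 replicate 1 was the lowest library at all 5 promoters.

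**Figure D1:**
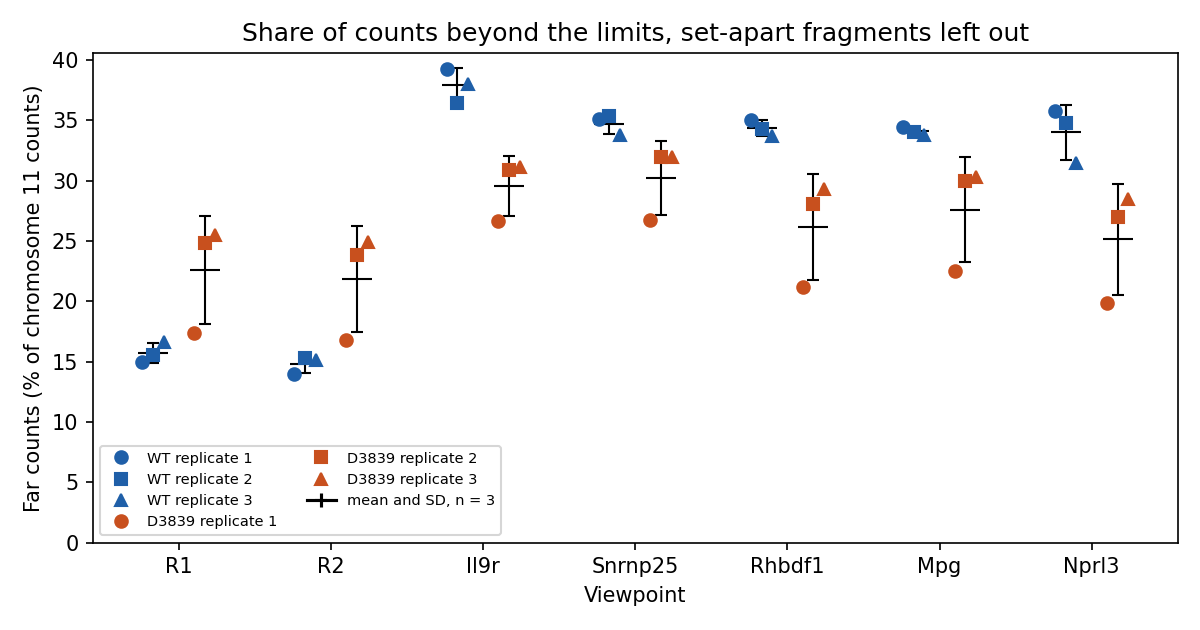
Far counts as a percentage of chromosome 11 counts (vertical axis) for each viewpoint, with 1 point per library, blue for WT and orange for D3839, and the mean and SD of 3 libraries in black. D3839 lies above WT at R1 and R2 and below it at the 5 promoters, and D3839 replicate 1 is the lowest D3839 library at all 7 viewpoints.

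As means, the far share of R1 was 15.7% ± 0.837 in WT and 22.6% ± 4.48 in D3839 (SD, n = 3), a log2 ratio of 0.52 with a standard error of 0.17. For R2 the log2 ratio was 0.56 ± 0.17 (SE). For Il9r it was -0.36 ± 0.077, for Snrnp25 -0.20 ± 0.086, for Rhbdf1 -0.39 ± 0.14, for Mpg -0.30 ± 0.13 and for Nprl3 -0.44 ± 0.16. The exact two-sided permutation p was 0.1 at each of the 7 viewpoints, also after Benjamini-Hochberg adjustment over the 7, which is the smallest value that 3 against 3 libraries allow. Without D3839 replicate 1 the groups did not overlap either, and the ratios were -0.12 for Snrnp25, -0.26 for Rhbdf1 and -0.18 for Mpg, and -0.29 for both Il9r and Nprl3. With D3839 replicates 2 and 3 counted as 1, the groups still did not overlap at any viewpoint, and the smallest exact p is then 0.2.

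The enhancer difference depended on the set-apart fragments. With them kept, the R1 share was 21.2% to 21.8% in the WT libraries and 17.6%, 24.99% and 25.8% in the D3839 libraries, so that the groups overlapped, and the log2 ratio was 0.088. At R2 it was 0.068, and the groups overlapped as well. When each fragment on chromosome 11 was counted once, far and near alike, the ratios were 0.24 at R1 and 0.17 at R2 without overlap, and the 5 promoter ratios were 0.17 to 0.29, with D3839 the higher group. Such shares also differed with depth within WT, at Il9r with 61.1% at 16703 counts on all chromosomes and 71.9% at 34545. D3839 had 46083 to 68823 counts at Il9r and more than WT at each promoter, so that genotype and depth cannot be told apart there. The promoter ratios hardly moved with set-apart fragments kept, between -0.20 and -0.43.

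The promoter difference in turn depended on the total. As a share of counts on all chromosomes, the log2 ratios at the 5 promoters ran from -0.027 to 0.11 and the groups overlapped at each, while at R1 and R2 they were 0.77 and 0.80 without overlap. As a share of chromosome 11 counts beyond 100 kb from the viewpoint, the ratio was -0.0038 for Snrnp25, 0.040 for Rhbdf1, 0.11 for Mpg and 0.045 for Nprl3, with no overlap at Mpg and Nprl3, now with D3839 the higher group. At Il9r it was -0.11, still with D3839 the lower group and without overlap.

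Within a capture the viewpoints were read in the same libraries, so that their shares could be compared in pairs. With set-apart fragments left out, R2 lay below R1 in 6 of 6 libraries, by 0.256 to 1.47 percentage points. With them kept the order turned in WT replicate 2, at 22.6% for R2 and 21.8% for R1, and stayed in each of the others. Il9r lay above Rhbdf1, Mpg and Nprl3 in 6 of 6 libraries each, by means of 3.48, 2.89 and 4.17 points, and Snrnp25 lay above Rhbdf1 in 6 of 6 libraries by a mean of 2.22 points. Each of these 5 pairs had an exact paired permutation p of 0.03125, the smallest that 6 pairs allow, and an adjusted p of 0.0688 over the 11 pairs compared. For R1 and R2 this smallest p required set-apart fragments to be left out, since the sign was mixed with them kept. The other 6 pairs differed in sign between libraries, and their adjusted exact p-values were 0.115 to 0.344. In order of the WT mean, Il9r was followed by Snrnp25, Rhbdf1, Mpg and Nprl3, which lay within 0.732 points of each other, and then by the enhancers.

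Contact density did not fall evenly with distance. At R1 in WT it was 1.08% ± 0.028 of chromosome 11 counts per Mb between the limit and 2 Mb from the centre, 0.370% ± 0.040 between 2 and 4 Mb and 0.0881% ± 0.0041 between 4 and 8 Mb. It was then 0.153% ± 0.025 between 8 and 16 Mb and 0.198% ± 0.011 between 16 and 28 Mb, before 0.0977% ± 0.013 to 56 Mb and 0.0355% ± 0.0080 beyond (SD, n = 3 in each). The stretch from 4 to 8 Mb was therefore a trough with higher density on its far side.

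The trough was present at every viewpoint. In 42 of 42 combinations of library and viewpoint the density from 4 to 8 Mb was below that from 8 to 16 Mb and below that from 16 to 28 Mb. The class from 16 to 28 Mb exceeded that from 8 to 16 Mb in 35 of 42. At Il9r, for example, density went from 2.89% to 1.05% and 0.190% per Mb over the first 3 classes in WT and returned to 0.418% and 0.468% in the next 2.

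**Figure D2:**
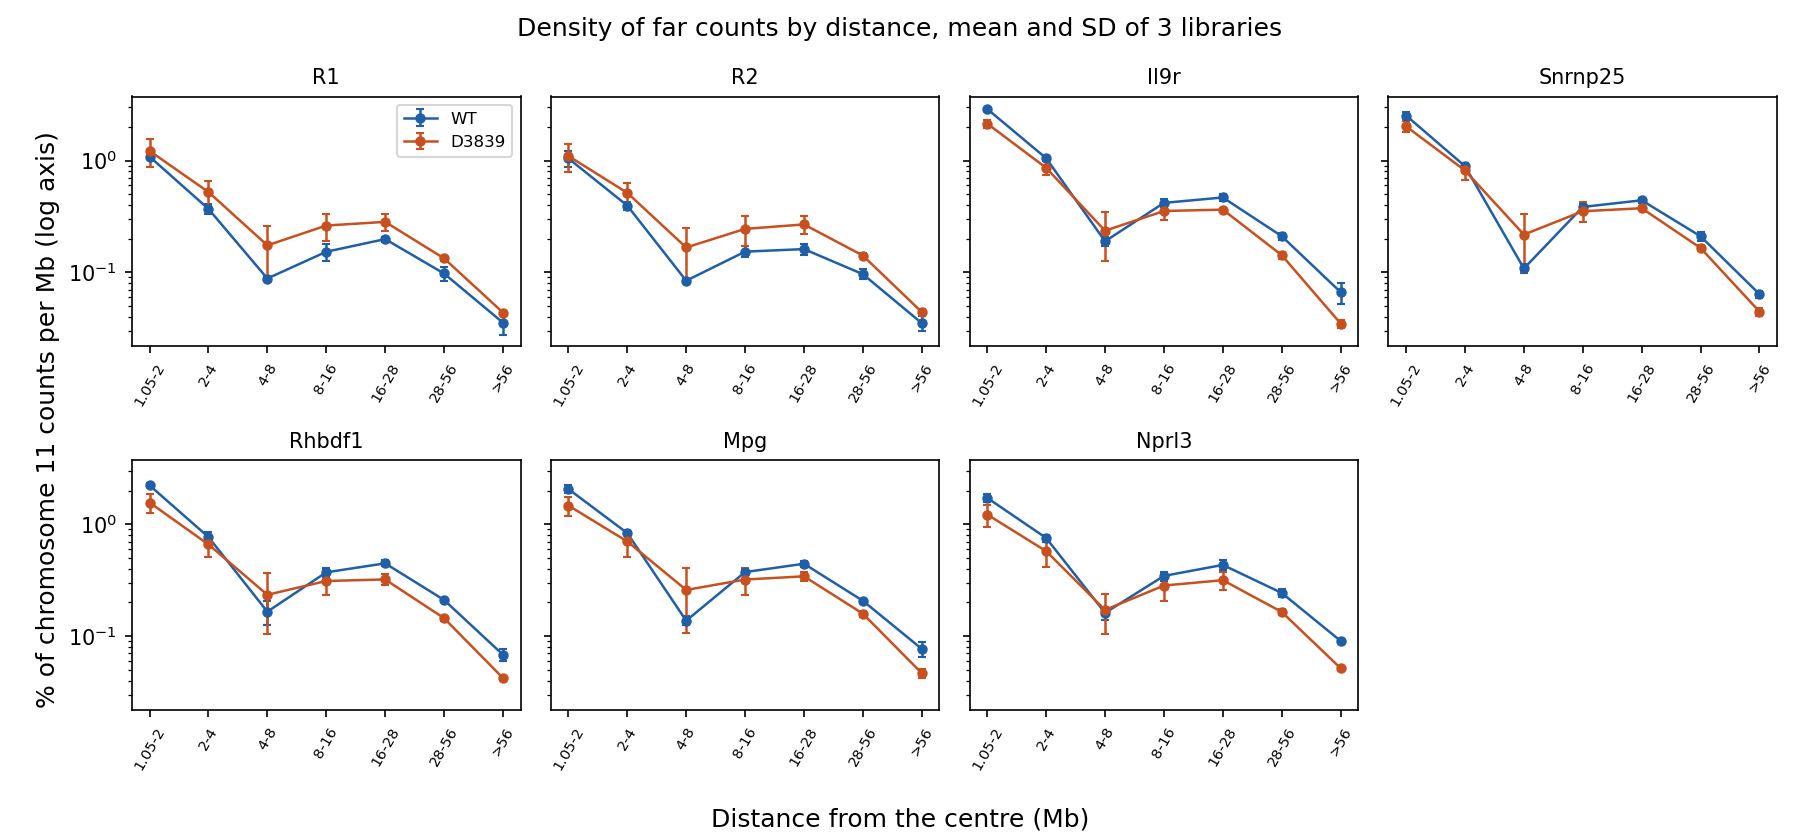
Percentage of chromosome 11 counts per Mb (log axis) in 7 classes of distance from the centre for each viewpoint, as mean and SD of 3 WT (blue) and 3 D3839 (orange) libraries. Each curve dips between 4 and 8 Mb and rises again to 28 Mb, and the D3839 error bars are widest in the dip.

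The depth of the trough separated D3839 replicate 1 from the other D3839 libraries. The density from 4 to 8 Mb, divided by that from 8 to 16 Mb, was 0.239 to 0.739 over the viewpoints of the 3 WT samples and 0.307 to 0.482 in D3839 replicate 1, but 0.620 to 0.981 in D3839 replicates 2 and 3. At Mpg the 3 WT libraries had 0.132%, 0.129% and 0.152% of chromosome 11 counts per Mb in the trough. D3839 replicate 1 had 0.0847% there, while replicates 2 and 3 had 0.357% and 0.335%. The counts behind these were 135, 65 and 76 in WT and 156, 1024 and 985 in D3839. At R1 the same densities were 0.0924%, 0.0879% and 0.0842% in WT and 0.0759%, 0.231% and 0.216% in D3839. In this class the groups overlapped at all 7 viewpoints, because D3839 replicate 1 lay on the other side of WT from replicates 2 and 3.

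The slope over the 5 classes up to 28 Mb, which both sides of the locus cover, was summarised by an exponent, the slope of log10 density on log10 distance. At R1 it was -0.64 ± 0.042 in WT and -0.53 ± 0.030 in D3839, and at R2 -0.70 ± 0.099 and -0.53 ± 0.019 (SD, n = 3), so that each D3839 library had a shallower slope than any WT library. The exact permutation p was 0.1 for both, and 0.35 after adjustment over the 7 viewpoints. At the promoters the WT means were between -0.53 at Nprl3 and -0.68 at Il9r, the D3839 means between -0.51 and -0.66, and the groups overlapped at all 5, with exact p-values of 0.3 to 0.8. The curves have a trough inside this range, and their fall beyond 28 Mb is not in the exponent. On the telomeric side alone the groups overlapped at both enhancers, with differences of -0.017 at R1 and 0.056 at R2, and on the centromeric side alone the differences were 0.16 and 0.24. With set-apart fragments kept, the differences over both sides were 0.078 at R1 and 0.098 at R2, without overlap.

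The 2 sides of the locus were unlike. The decay was steeper towards the centromere, with WT exponents of -0.73 to -0.94 there and -0.24 to -0.42 towards the telomere. Between the limit and 28 Mb, the telomeric side held 0.738 to 0.938 times as many counts as the centromeric side, and it held fewer in all 42 combinations of library and viewpoint. In the first class, to 2 Mb, this ratio was 0.384 at Snrnp25 and up to 0.484 at R2 as means over 6 libraries, and it was below 1 in 42 of 42 combinations. From 16 to 28 Mb it was 1.55 at R1 and 1.98 at Snrnp25, and above 1 in 42 of 42.

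At R1 the ratio of telomeric to centromeric counts was 0.795 ± 0.016 in WT and 0.881 ± 0.014 in D3839, and at R2 0.799 ± 0.031 and 0.891 ± 0.024 (SD, n = 3). Neither pair of groups overlapped, and at Snrnp25 the order was reversed, with 0.882 ± 0.030 in WT and 0.830 ± 0.0094 in D3839, also without overlap. The exact permutation p was 0.1 in these 3 cases. The groups overlapped at the other 4 viewpoints. With set-apart fragments kept they overlapped at both enhancers too, with means of 0.841 and 0.878 at R1 and 0.830 and 0.886 at R2, and the telomeric side held fewer counts in 42 of 42 combinations as before.

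The differences between genotypes varied with distance. At the enhancers, log2 ratios of D3839 to WT were 0.071 to 0.17 up to 2 Mb, 0.99 in the trough, 0.51 to 0.73 from 16 to 28 Mb and 0.30 to 0.33 beyond 56 Mb. At the promoters they were -0.51 to -0.32 up to 2 Mb, 0.089 to 1.01 in the trough, -0.48 to -0.24 from 16 to 28 Mb and -0.93 to -0.52 beyond 56 Mb. The groups did not overlap at 5 of 5 promoters up to 2 Mb and in the 3 classes beyond 16 Mb, and at both enhancers from 16 to 56 Mb. With set-apart fragments kept, the enhancer groups overlapped in all 7 classes, and the log2 ratios from 16 to 28 Mb were 0.060 at R1 and 0.14 at R2. Beyond 56 Mb they were then -0.085 and -0.19, and up to 2 Mb -0.24 and -0.21.

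**Figure D3:**
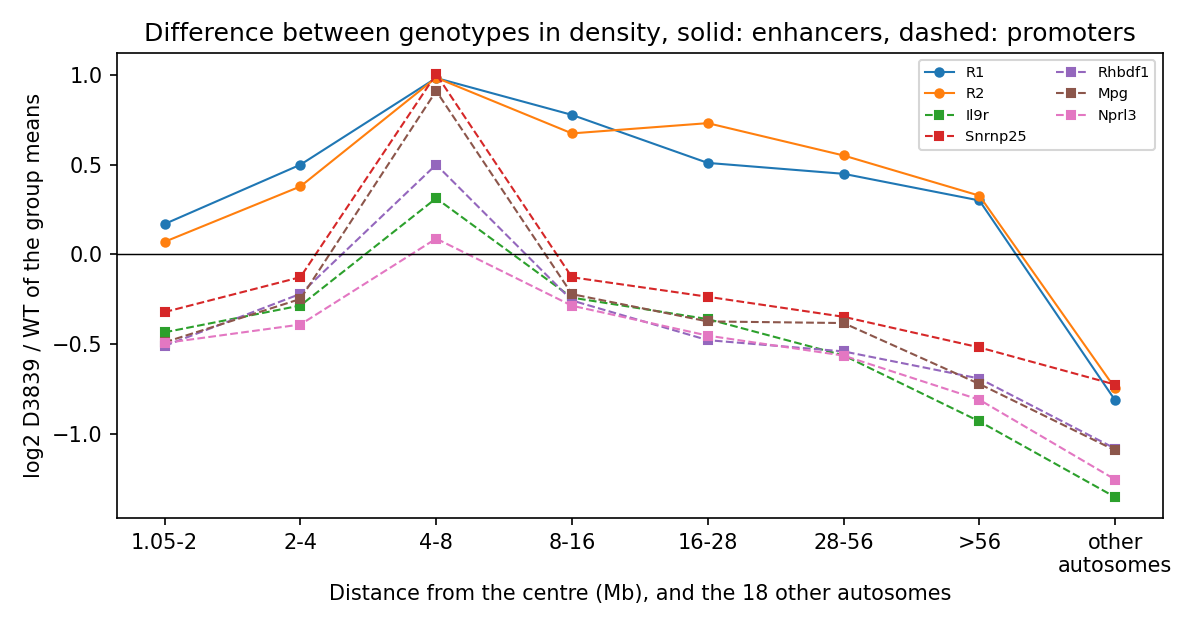
log2 ratio of the D3839 mean to the WT mean (3 libraries each) of the density per Mb, by class of distance from the centre and on the 18 other autosomes, with 1 line per viewpoint, solid for enhancers and dashed for promoters, and set-apart fragments left out on chromosome 11 but not on other autosomes. Enhancer ratios are above 0 on chromosome 11, promoter ratios are below 0 outside the class from 4 to 8 Mb, and all 7 are below 0 on other autosomes, between -1.36 and -0.73.

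Contacts with the 18 other autosomes give a level without linkage against which the distal end of chromosome 11 can be read. In WT the density on them was 0.0224% of chromosome 11 counts per Mb at R1 and 0.0396% at Nprl3. Fragments beyond 56 Mb were still above this level at all 7 viewpoints, with a WT density 1.501 to 2.57 times that on other autosomes. These ratios leave set-apart fragments out on chromosome 11 alone, which lowers them at R1 and R2. With them kept on all chromosomes, the WT densities beyond 56 Mb and on other autosomes were 0.0464% and 0.0209% at R1 and 0.0502% and 0.0216% at R2. Up to 2 Mb the density in WT was 43.7 to 102 times that on other autosomes.

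Beyond 28 Mb, chromosome 11 stood further above other autosomes in D3839 than in WT. The density was 2.47, 3.04 and 3.01 times that on other autosomes at R1 in the 3 WT libraries and 5.67, 7.47 and 6.99 times in the 3 D3839 libraries. R2 had 2.55, 2.70 and 2.82 in WT and 5.31, 7.13 and 6.89 in D3839. At the promoters the means went from 4.26 ± 0.615 to 6.87 ± 0.367 at Il9r, from 5.25 ± 0.345 to 6.65 ± 0.482 at Snrnp25 and from 4.52 ± 0.467 to 6.42 ± 0.829 at Rhbdf1. Mpg had 3.73 ± 0.0957 and 5.73 ± 0.220, and Nprl3 4.05 ± 0.391 and 6.31 ± 1.04 (SD, n = 3). No WT library reached a D3839 library at any viewpoint, and the exact permutation p was 0.1 at each, before and after adjustment over the 7. Nearer the locus the groups overlapped in part, up to 2 Mb at R2, Snrnp25, Rhbdf1, Mpg and Nprl3, from 2 to 4 Mb at Snrnp25 and Nprl3, from 4 to 8 Mb at Rhbdf1 and from 8 to 16 Mb at Snrnp25 and Rhbdf1.

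This ratio has the other autosomes as its base, and their density relative to chromosome 11 was lower in D3839 at all 7 viewpoints, by a log2 ratio of -0.73 to -1.36, without overlap. That held at the 5 promoters with fragments set apart on other autosomes by the same rule, but at R1 and R2 the ratios were then -0.40 and -0.20 and the groups overlapped. With set-apart fragments kept on all chromosomes they were -0.72 and -0.64, without overlap. The part of the WT enhancer libraries' repeat counts in the autosomal level was measured by setting fragments apart there by the same rule. The log2 ratio then went from 1.24 to 0.82 at R1 and from 1.26 to 0.70 at R2, and the groups did not overlap. With set-apart fragments kept on chromosome 11 as on the other autosomes it was 0.75 at R1 and 0.61 at R2, again without overlap. At the promoters it was 0.34 to 0.69 in each of these settings. Whether the samples differed in random ligation, which also adds contacts between chromosomes, was not tested.

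Far counts were gathered in particular stretches of the chromosome. A bin of 500 kb was called preferred where a viewpoint's counts in it were at least 1.5 times the median of the 10 bins on each side, in at least 5 of 7 viewpoints, and avoided where they were at most 1/1.5 of it in as many viewpoints. Of 193 bins with enough neighbours, among 233 complete far bins, 43 were preferred and 37 avoided. In 28 of the preferred and 24 of the avoided bins all 7 viewpoints met the limit. Adjacent bins joined into 27 preferred and 20 avoided stretches, of which the longest had 5 bins each, chr11:68200000-70699999 among the preferred and chr11:90700000-93199999 among the avoided.

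The bin with the highest median enrichment was chr11:11600000-12099999, 20.3 Mb from the centre on the centromeric side, at 5.90 times its local median and between 4.45 at Il9r and 7.82 at Nprl3. With the promoter viewpoints summed, its enrichment was 9.03, 7.76 and 6.65 in WT and 12.9, 3.30 and 2.88 in D3839. With the enhancers summed it was 5.76, 6.43 and 8.36 in WT and 12.6, 4.10 and 4.26 in D3839. The bin stood out in each library, most in D3839 replicate 1 and least in D3839 replicates 2 and 3.

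The bin chr11:20100000-20599999 was at 4.92 times its local median and its neighbour chr11:20600000-21099999 at 3.72. On the telomeric side chr11:68700000-69199999, 36.8 Mb from the centre, was at 4.36 and chr11:43200000-43699999, 11.3 Mb from the centre, at 4.17. All 5 bins were above their local median in 42 of 42 combinations of library and viewpoint. In the promoter capture chr11:20100000-20599999 was at 7.87, 5.26 and 5.04 in WT and 7.96, 2.91 and 2.72 in D3839. For chr11:68700000-69199999 the same values were 3.98, 3.77 and 3.79 in WT and 4.67, 3.21 and 2.78 in D3839. In both bins D3839 replicate 1 was above the WT libraries and replicates 2 and 3 below them in this capture. At chr11:43200000-43699999 the values were 7.97, 6.71 and 4.43 in WT and 6.84, 2.53 and 2.72 in D3839, with replicate 1 inside the range of WT. In the enhancer capture D3839 replicate 2, at 3.75, was above WT replicate 3, at 3.39, in chr11:68700000-69199999.

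The most avoided bins were chr11:55700000-56199999 at 0.240 times the local median, its neighbour chr11:56200000-56699999 at 0.297 and chr11:73200000-73699999 at 0.301. In the promoter capture the first of these was at 0.144, 0.156 and 0.160 in WT, 0.152 in D3839 replicate 1 and 0.495 and 0.530 in D3839 replicates 2 and 3. The third was at 0.182, 0.227 and 0.0851 in WT and 0.116, 0.589 and 0.639 in D3839. In the promoter capture all 3 avoided bins were closer to their local median in D3839 replicates 2 and 3 than in the other 4 libraries. In the enhancer capture this was not so at chr11:56200000-56699999, with 0.471, 0.175 and 0.276 in WT and 0.104, 0.399 and 0.396 in D3839.

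**Figure D4:**
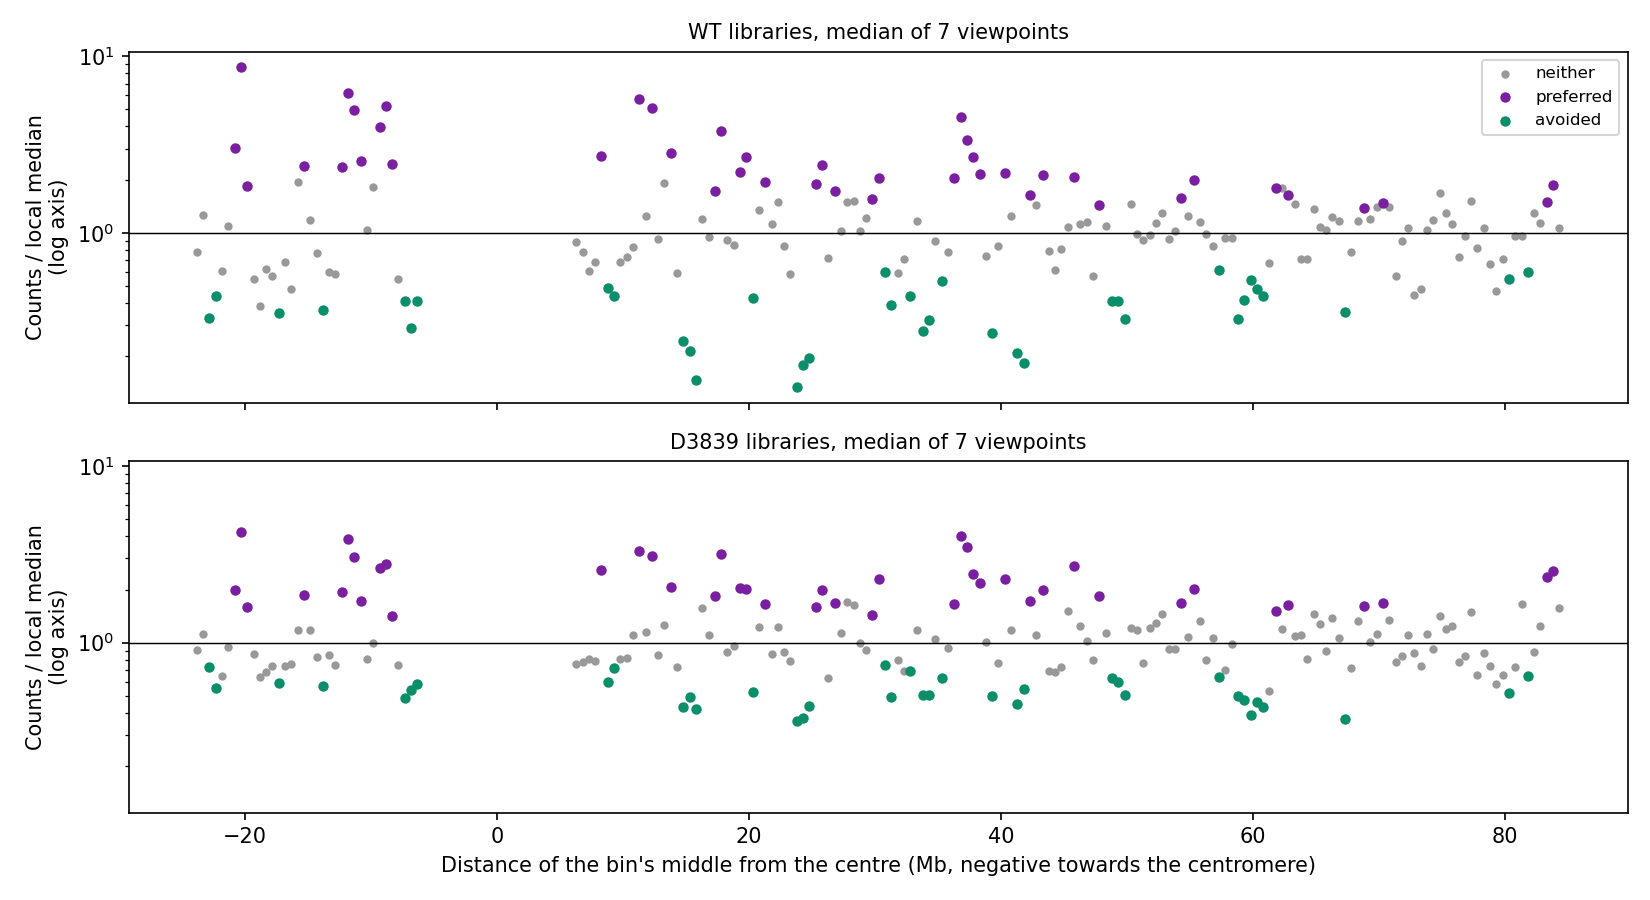
Counts in each 500 kb bin divided by the median of its neighbours (log axis) against the distance of the bin's middle from the centre in Mb, as the median of 7 viewpoints in WT (upper) and D3839 (lower) libraries, for the 193 bins evaluated. Purple marks the 43 preferred and green the 37 avoided bins. The highest point, 20.3 Mb towards the centromere, is at 8.63 in WT and 4.24 in D3839.

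The contrast between the 2 kinds of bin was then taken for each library, as counts per preferred bin over counts per avoided bin. Since the bins were chosen on these counts, the values are a description. Over the 7 viewpoints it was 6.13 to 10.6 in WT replicate 1, 6.16 to 11.9 in WT replicate 2 and 5.23 to 7.63 in WT replicate 3. It was 7.47 to 11.0 in D3839 replicate 1, but 2.38 to 4.33 in replicate 2 and 2.31 to 4.71 in replicate 3. D3839 replicate 1 was thus within or above the range of WT, and replicates 2 and 3 lay below all WT libraries at every viewpoint. At Mpg, preferred bins held 36.6%, 37.5% and 33.0% of the far counts in WT and 38.9%, 26.3% and 26.8% in D3839, and avoided bins 3.69%, 4.44% and 4.59% in WT and 3.18%, 9.53% and 9.99% in D3839.

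**Figure D5:**
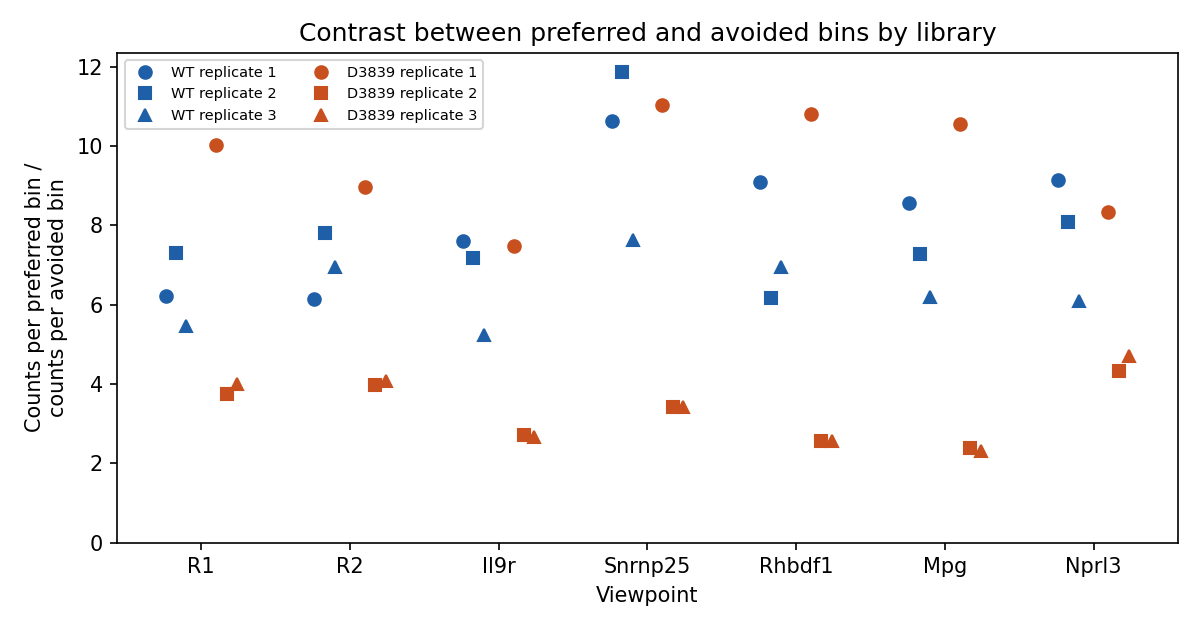
Counts per preferred bin divided by counts per avoided bin (vertical axis, linear from 0) for each viewpoint, with 1 point per library, blue for WT and orange for D3839. D3839 replicates 2 and 3 lie between 2.31 and 4.71 and all other libraries at or above 5.23.

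The positions of the preferred bins differed little between groups of libraries. With the same rule, the WT libraries alone gave 41 preferred bins and the D3839 libraries alone 44, of which 35 were common, 85.4% of the WT set and 79.5% of the D3839 set. Across the 193 bins, which are not independent replicates, Pearson's r of log2 enrichment was 0.93 between WT and D3839 and 0.95 between enhancers and promoters, and 0.84 to 0.92 between pairs of viewpoints. The 2 captures were made from the same samples, and all libraries share the genome's DpnII sites and the mappability of its fragments. The number of listed fragments in a bin, which rises with counts, had a median of 799 in preferred, 353 in avoided and 366 in other bins. The median fragment length differed less, at 345, 370 and 365 bp, and r between enrichment and median fragment length was -0.24. Mappability itself was not tested, and the genes in these bins were not analysed here.

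Fragments listed in at least 4 of the 6 libraries of a viewpoint were rare, from 64 of 17333 at Snrnp25 to 676 of 38109 at R2, or 0.369% to 1.77%. They lay nearer to the locus than far fragments in general, with a median of 1.47 Mb from the centre at Il9r against 18.2 Mb for all its far fragments, and of 5.85 Mb against 19.8 Mb at R1. The fragment listed most often was chr11:30676223-30677018, of 796 bp, found in 37 of 42 combinations with 80 counts in all, 32 in WT and 48 in D3839. It was followed by chr11:30898318-30898886 and chr11:30887047-30888079 in 35 each, chr11:30900768-30901464 in 34 and chr11:30853718-30855366 in 33. All 5 lay between 1.25 and 1.47 Mb from the centre on the centromeric side, none had more than 12 counts in a library, and all 7 viewpoints listed each of them.

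Each of the 233 far bins was then compared between genotypes with edgeR's quasi-likelihood test, with the viewpoints of a capture summed. Relative to chromosome 11 counts, no bin of the enhancer capture passed an adjusted p of 0.05, so that 0% was called in either direction, although 90 bins were higher and 0 lower in D3839 at an unadjusted p under 0.05. DESeq2, which scales each library by its far bins and so did not test shares of chromosome 11 counts, called 0 higher and 1 lower. Without D3839 replicate 1 edgeR called 128 bins higher. In the promoter capture 39 bins, or 16.7%, were lower and 0 bins, or 0%, higher, and DESeq2, which scales each library by its far bins, called 0 in either direction. Of the 233 bins 98 were lower and 2 higher at an unadjusted p under 0.05. The median log2 ratio over bins was 0.59 in the enhancer and -0.47 in the promoter capture, the shift that the far shares above already describe. In the enhancer capture the 90 and 128 bins and this median were taken without set-apart fragments, which lowers the WT counts by construction. With them kept edgeR called 0 enhancer bins in either direction, and the far share ratios were 0.088 at R1 and 0.068 at R2.

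The 3 promoter bins with the smallest p were chr11:30600000-31099999, chr11:29100000-29599999 and chr11:53200000-53699999. The first, the bin just outside the centromeric limit, held 2.53%, 2.32% and 2.30% of chromosome 11 counts in WT and 1.47%, 1.60% and 1.52% in D3839, a log2 ratio of -0.64 ± 0.067 (SE) with an edgeR adjusted p of 0.0024. The second held 1.09%, 0.943% and 1.10% in WT and 0.626%, 0.579% and 0.603% in D3839, a log2 ratio of -0.80 ± 0.092 with an edgeR adjusted p of 0.00254. The third held 0.538%, 0.487% and 0.479% in WT and 0.311%, 0.277% and 0.283% in D3839, a log2 ratio of -0.79 ± 0.11 with an edgeR adjusted p of 0.00729. The groups did not overlap in any of the 3, and D3839 replicate 1 was close to the other D3839 libraries in each. The count of 39 depended on the libraries, being 2 without WT replicate 1, 2 without WT replicate 2, 15 without WT replicate 3, 107 without D3839 replicate 1, 2 without D3839 replicate 2 and 4 without D3839 replicate 3, and 59 bins were higher without D3839 replicate 1. With D3839 replicates 2 and 3 counted as 1 it was 2, and with the scaling factors of edgeR, which remove a shift common to all far bins, it was 0.

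Relative to the far counts, the same test asks whether these were distributed differently. In the enhancer capture 1 bin, or 0.429%, was lower in D3839 and 0% were higher, with 20 bins higher and 12 lower at an unadjusted p under 0.05. The DESeq2 result, 0 higher and 1 lower, is the one given above and not a further test. The bin called by edgeR was again chr11:30600000-31099999, with 8.80%, 7.94% and 6.71% of the far counts in WT and 4.65%, 4.72% and 4.66% in D3839, a log2 ratio of -0.74 ± 0.11 with an edgeR adjusted p of 4.03e-05. Relative to chromosome 11 counts it was not called in this capture. Leaving out set-apart fragments lowers the WT far total in these percentages by construction, and with them kept 2 bins were called lower. With each fragment counted once no bin was called, this one included. In the promoter capture 0% were called in either direction, with 34 bins higher and 12 lower at an unadjusted p under 0.05. The DESeq2 result given above for this capture was also 0. Without D3839 replicate 1 the promoter test called 68 bins higher and 66 lower, and the enhancer test 36 higher and 10 lower. These counts compare WT with the pair of D3839 libraries that differed from each other little or not at all, and whether they reflect the genotype or that pair cannot be told apart.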

How the data were processed

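Interaction counts per DpnII fragment and viewpoint in 12 libraries were used as deposited by the authors, who aligned reads to mm9. The submitters' processing notes name Trim Galore and Bowtie, with versions not given in the sources used here. Counts are not normalised. Counts from 7 viewpoints were grouped by the labels; the labels name only R1, Rhbdf1 and Mpg as capture points. Total counts per library and viewpoint were 7950 to 101618, and 3 counts, the most that a count of 0 allows, were 0.0043% to 0.060% of chromosome 11 counts. Intervals of this kind cover counting error only. The fragment class, distance classes, bins and rules were chosen with earlier results of these data known. p-values measure the spread between these samples, and the labels do not say that D3839 libraries came from separate clones. Shares and exponents were tested with exact permutation tests (Python 3.11.15, SciPy 1.17.1). For bins with 30 or more counts, edgeR 4.0.16 (R 4.3.3) was run without scaling factors at an adjusted p of 0.05. DESeq2 1.42.0 was an alternative, scaled by the far bins whichever total edgeR used. The bin test was checked on simulated counts. Named bins were up to 3 per direction with the smallest p among those called, the 5 most preferred and 3 most avoided bins, the 6 set-apart fragments with the highest count and the 5 most often listed fragments. The contrast and trough by library, the decay line for preferred bins, far fragments counted once, the setting apart on other autosomes the classes and sides with set-apart fragments kept, and the alternatives for the difference between captures were added after seeing the data. Same-numbered WT and D3839 libraries deviated together with a correlation of -0.12, -0.047 and -0.038 in the enhancer capture and 0.21, 0.10 and 0.012 in the promoter capture, so that the numbers were not taken to pair them. Leaving out each library, other totals, other set-apart rules, other bins and a replicate block were tried.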

Additional observations from a re-analysis of the deposited data

Results flagged for a closer look

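The genotype difference in far share had opposite directions in the captures, D3839 being the higher group at both enhancers and the lower at all 5 promoters, without overlap. Taken per sample as the mean log2 share of the enhancers minus that of the promoters, the value was -1.31, -1.18 and -1.10 in WT and -0.44, -0.28 and -0.26 in D3839. The difference was 0.87, with an exact two-sided permutation p of 0.1, the smallest that 3 against 3 samples allow. With set-apart fragments kept it was 0.41 and with all chromosomes as the total 0.72, both with an exact p of 0.1. With each fragment on chromosome 11 counted once it was -0.022, with an exact p of 1. D3839 was then the higher group at all 7 viewpoints, by 0.17 to 0.29, and the opposite directions were not present in this setting. Such shares were also highest in the deepest WT library at all 5 promoters. Each D3839 promoter library was deeper than any WT library of its viewpoint, so that genotype and depth cannot be told apart there. This setting also takes the repeat counts of near fragments out of the total. With far fragments alone counted once, which lowers the WT enhancer shares by construction, the ratios were 0.86 at R1, 0.95 at R2 and -0.44 to -0.19 at the promoters, without overlap. The single viewpoints did not all keep their separation, since with set-apart fragments kept the groups overlapped at both enhancers (0.088 and 0.068), and with all chromosomes as the total they overlapped at all 5 promoters (-0.027 to 0.11).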

How the results depend on the processing

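Of the alternatives for the far share, 107 kept its direction and its side of the criterion of no overlap, and all 70 for the ratio to other autosomes did so. The far share of R1 and R2 kept its direction but overlapped with set-apart fragments kept (log2 0.088 and 0.068) or set apart only at 10 or more counts (0.24 and 0.23). With fragments set apart at 3 or more counts the log2 ratio of the far share was 0.90 at R1 and 0.94 at R2, without overlap. That of Snrnp25 overlapped with chromosome 11 beyond 10 kb (-0.082) or beyond 100 kb (-0.0038) as the total, and that of Rhbdf1 with all chromosomes as the total (-0.027). With all chromosomes as the total the sign turned at Il9r (0.078), Snrnp25 (0.031), Mpg (0.11) and Nprl3 (0.057). Beyond 100 kb it turned at Rhbdf1 (0.040), Mpg (0.11) and Nprl3 (0.045), and with each fragment counted once in the share and the total at Il9r (0.26), Snrnp25 (0.22), Rhbdf1 (0.22), Mpg (0.29) and Nprl3 (0.17). In that last setting genotype and depth cannot be told apart at the promoters, as described above. The cause was not tested.

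The difference in decay exponent turned on the telomeric side at R1 (-0.017), Il9r (-0.055), Snrnp25 (-0.076), Rhbdf1 (-0.084), Mpg (-0.11) and Nprl3 (-0.052) and overlapped at R2 (0.056), and it turned at Rhbdf1 with Poisson regression (-0.025). Groups came not to overlap on the centromeric side at Il9r (0.083), Snrnp25 (0.11), Mpg (0.12) and Nprl3 (0.071), with each fragment once at the same viewpoints (0.067, 0.048, 0.055 and 0.040), over classes up to 16 Mb at Mpg (0.17) and Nprl3 (0.10), and at Snrnp25 with D3839 replicates 2 and 3 as 1 (0.022). With the replicate block the sign was the same in all 3 pairs at Il9r (0.022) and Nprl3 (0.023), where the smallest exact p is 0.25. Leaving out 1 library gave 0.0042 to 0.035 at Il9r, 0.011 to 0.027 at Snrnp25, 0.014 to 0.048 at Mpg, 0.0072 to 0.035 at Nprl3 and -0.016 to 0.020 at Rhbdf1, where the sign turned without WT replicate 3 (-0.016) and without D3839 replicate 1 (-0.0051). It gave 0.086 to 0.13 at R1 and 0.11 to 0.21 at R2. Groups came not to overlap without WT replicate 1 at Il9r and Nprl3, without WT replicate 2 at Mpg and without D3839 replicate 3 at Snrnp25. The far share without 1 library was 0.43 to 0.68 at R1, 0.46 to 0.72 at R2, -0.40 to -0.29 at Il9r, -0.24 to -0.12 at Snrnp25, -0.48 to -0.26 at Rhbdf1, -0.38 to -0.18 at Mpg and -0.54 to -0.29 at Nprl3, without overlap.

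Preferred bins numbered 22 at 2 times the local median. Avoided bins numbered 57 at 1.3 times, 19 at 2 times and 61 against the decay line. Without 1 replicate the counts were 37 to 42 and 32 to 41.

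In the enhancer capture DESeq2, scaled by the far bins and so the same for both totals, called 1 bin lower. Relative to chromosome 11, edgeR called 1 bin lower with TMM factors. Bins called higher were 61 with the replicate block, 1 with each fragment once, 10 in bins of 250 kb and 0 to 128 without 1 library. Relative to far counts, lower bins were 2 with set-apart fragments kept, 0 with each fragment once, 7 at 250 kb, 2 at 1 Mb, 3 with bins at multiples of 500 kb and 1 to 10 without 1 library. Higher bins were 7 at 250 kb and 0 to 36 without 1 library. In the promoter capture DESeq2, again the same for both totals, called 0 bins lower. Relative to chromosome 11, lower bins were 0 with TMM factors, 14 with the replicate block, 0 with each fragment once and 2 with D3839 replicates 2 and 3 as 1. Without 1 library lower bins were 2 to 107 and higher bins 0 to 59. Relative to far counts, the replicate block gave 7 higher and 1 lower, and leaving out 1 library 0 to 68 higher and 0 to 66 lower. The replicate numbers were not shown to pair the samples. Single fragments were not tested, and most had few counts.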
